A study of Mus musculus with 8 samples.

Results

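Immediate early response genes are the genes that a cell transcribes within minutes of a stimulus, before any new protein is made. The 10 described here are Fos, Fosb, Junb, Atf3, Egr1, Nr4a1, Klf2, Ier2, Ier3 and Dusp1, chosen by name with earlier results of these data known, and all 10 were present among the 25965 genes of the deposited values. Total RNA of whole mouse lung was sequenced shortly before birth (embryonic stage E18.5) and shortly after it (postnatal stage P1.5), in Wfdc2 +/+ mice and in Wfdc2 GFP/GFP mice, with 2 libraries in each of the 4 groups and 8 in all. Wfdc2 encodes a secreted protein of lung epithelium with the fold of a protease inhibitor. Wfdc2 GFP/GFP mice carry a GFP cassette on both alleles in place of a part of the first exon and the whole of the next exon, an allele made in TT2 embryonic stem cells from which the neo marker was removed with CAG-Cre, a Cre active in most tissues. The gene is lost in every tissue of these mice and not in lung alone. The libraries are stated to come from duplicate animals with littermates as controls, and which animals shared a litter is not given. The p-values thus measure the spread between these animals. That spread includes any difference between the sexes, since by Xist reads replicate 1 of every group was female and replicate 2 male.

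The protein products of immediate early genes are mostly transcription factors, together with phosphatases and other feedback regulators. Growth factors, mechanical stretch, oxygen and stress reach their promoters through kinases that act on factors already bound there, such as serum response factor with its ELK partners and CREB. The transcripts are short lived, so their level in a dissected tissue follows the recent history of its cells, and handling of tissue is known to induce several of them. In lung these genes are known to respond to stretch and to shear stress, and Klf2 is needed in endothelial cells.

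The targeted gene was checked before the members. Its reads numbered 8038 to 32845 per Wfdc2 +/+ library and 0 to 12 per Wfdc2 GFP/GFP library. Library totals ran from 19457647 to 37209333 reads, so that 3 reads, taken as the limit of detection, stood for 0.0806 to 0.154 RPM. Markers of lung epithelium, Sftpc among them, were abundant in every library, with a summed level of 2516 to 24241 RPKM, reads scaled by gene length and library total. The 2 libraries of P1.5 Wfdc2 +/+ were unlike, with smooth muscle and fibroblast markers summing to 55.9 and 242 RPKM in replicates 1 and 2. Their neutrophil markers summed to 1175 and 322 RPKM, so levels and differences that rest on this pair carry that spread. Replicate 1 of E18.5 Wfdc2 GFP/GFP stood apart from the other 3 E18.5 libraries. Its epithelial markers summed to 2516 RPKM against 5741 to 7219, its endothelial markers to 77.1 against 206 to 247 and its red cell markers to 1092 against 3244 to 4043. Sftpc and Cldn5 held most of the epithelial and endothelial sums, at 2052 RPKM against 4541 to 5852 and 46.4 against 169 to 208. Not every marker was low, Nkx2-1 being at 68.2 RPKM against 45.3 to 69.9 and Tek at 0.930 against 0.528 to 0.679. This library was also the lowest of the 8 for 7 of the 10 members, so results that rest on it are given with and without it.

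The promoters of 8 of the 10 genes were found in RefSeq (GRCm38.p6), and those of Egr1 and Ier2 were not found and not searched. The motifs known for these genes were searched on both strands in the 250 bases before each start. The cAMP response element (CRE), TGACGTCA, the site of CREB, was present in the Dusp1 promoter and in 1.55% of 32851 promoters. Its half-site TGACG, which is contained in the full element, was present in 7 of the 8, all but that of Ier3, and in 17.8% of all promoters. The EGR site GCGNGGGCG was present in those of Fosb, Klf2 and Nr4a1 and in 4.70% of all promoters. The AP-1 site TGANTCA and the CArG box of serum response factor were in none of the 8 windows, and in 6.75% and 1.47% of all promoters. Sites farther from the start, or before Egr1 and Ier2, could not be seen by this search. The TATA box TATAAA was present in that of Fos, from 33 to 28 bases before the start, and in 12.4% of all promoters. The half-site of Atf3 lay in the 7 bases of its window that fall inside the gene as deposited. Such bases are left out of the stretches below, 47 for Dusp1 and 29 for Klf2. A match is a run of letters and no measure of binding. The stretches are printed for the 4 of these genes whose transcripts rose between stages and for Fos, which had the largest difference between genotypes at P1.5, with CRE, half-site and EGR letters in capitals:
Dusp1, chr17:26508520-26508722, minus strand: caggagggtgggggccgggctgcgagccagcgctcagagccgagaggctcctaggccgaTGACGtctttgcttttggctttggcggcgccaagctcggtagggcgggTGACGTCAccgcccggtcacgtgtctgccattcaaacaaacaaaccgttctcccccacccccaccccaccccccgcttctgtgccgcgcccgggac
Fosb, chr7:19310046-19310295, minus strand: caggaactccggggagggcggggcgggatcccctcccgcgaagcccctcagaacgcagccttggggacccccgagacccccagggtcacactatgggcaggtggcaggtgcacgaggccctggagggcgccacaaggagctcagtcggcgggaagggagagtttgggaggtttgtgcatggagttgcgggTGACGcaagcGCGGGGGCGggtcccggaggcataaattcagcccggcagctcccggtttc
Nr4a1, chr15:101266596-101266845, plus strand: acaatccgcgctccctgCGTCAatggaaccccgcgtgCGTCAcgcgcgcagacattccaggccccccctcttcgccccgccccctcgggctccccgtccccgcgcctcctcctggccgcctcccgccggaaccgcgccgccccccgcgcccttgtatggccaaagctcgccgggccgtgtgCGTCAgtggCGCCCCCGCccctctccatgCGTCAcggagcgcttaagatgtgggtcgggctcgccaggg
Klf2, chr8:72318812-72319032, plus strand: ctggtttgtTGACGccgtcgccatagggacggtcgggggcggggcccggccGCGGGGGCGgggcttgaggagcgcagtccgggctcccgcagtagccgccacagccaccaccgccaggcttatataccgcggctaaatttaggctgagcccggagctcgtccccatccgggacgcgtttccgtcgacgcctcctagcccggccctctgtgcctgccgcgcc
Fos, chr12:85473640-85473889, plus strand: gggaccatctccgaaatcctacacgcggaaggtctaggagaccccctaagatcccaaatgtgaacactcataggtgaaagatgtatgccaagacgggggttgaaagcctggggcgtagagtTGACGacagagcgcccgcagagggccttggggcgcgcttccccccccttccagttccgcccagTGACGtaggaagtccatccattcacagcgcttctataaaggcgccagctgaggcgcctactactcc

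The genes themselves lie, in mm10 as deposited, at chr12:85473890-85477273 (Fos), chr7:19302721-19310045 (Fosb), chr8:84976909-84978748 (Junb), chr1:191170296-191183340 (Atf3), chr18:34859823-34864984 (Egr1), chr15:101266846-101274792 (Nr4a1), chr8:72319033-72321656 (Klf2), chr8:84661331-84662852 (Ier2), chr17:35821684-35822923 (Ier3) and chr17:26505590-26508519 (Dusp1). All 10 are protein coding genes of GENCODE release M21, and none overlapped another gene there or in the deposited values. The deposited RPKM divide by the whole gene span, introns included, which lowers genes with long introns. Exons filled 15.2% of the span of Atf3 and 41.6% of that of Nr4a1, but all of that of Ier2. Levels were therefore compared between genes after dividing the reads by the exonic length within the span. This takes all counted reads as exonic, which was not tested, and reads in introns would place Atf3 and Nr4a1 too high. On that scale the mean over the 8 libraries was highest for Ier3, at 67.3 RPKM, followed by Ier2 at 56.4, Klf2 at 47.7, Dusp1 at 26.9 and Junb at 25.3. Fos at 7.35, Nr4a1 at 5.92, Atf3 at 5.08 and Egr1 at 2.73 were lower, and Fosb at 0.210 was the lowest. Each range over the libraries was wide, such as 18.6 to 169 for Ier3 and 16.7 to 105 for Ier2, so neighbours in this order overlapped. All further values are RPKM as deposited.

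The 10 genes were compared between stages first. All 10 had a higher mean at P1.5 than at E18.5, where 37.3% of the 15627 genes tested did, and 5 rose by limma's moderated test at an adjusted p under 0.05, namely Fosb, Egr1, Nr4a1, Klf2 and Dusp1. Over all genes tested 5.14% passed, 2.58% higher and 2.56% lower. The median log2 fold change (P1.5 minus E18.5, 4 libraries against 4) of the 10 was 1.52, and that of all genes tested was -0.32. Fewer cells of a type and less RNA per cell cannot be told apart in whole lung, and whatever else differed between the collections of the stages cannot be told apart from age.

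**Figure D1:**
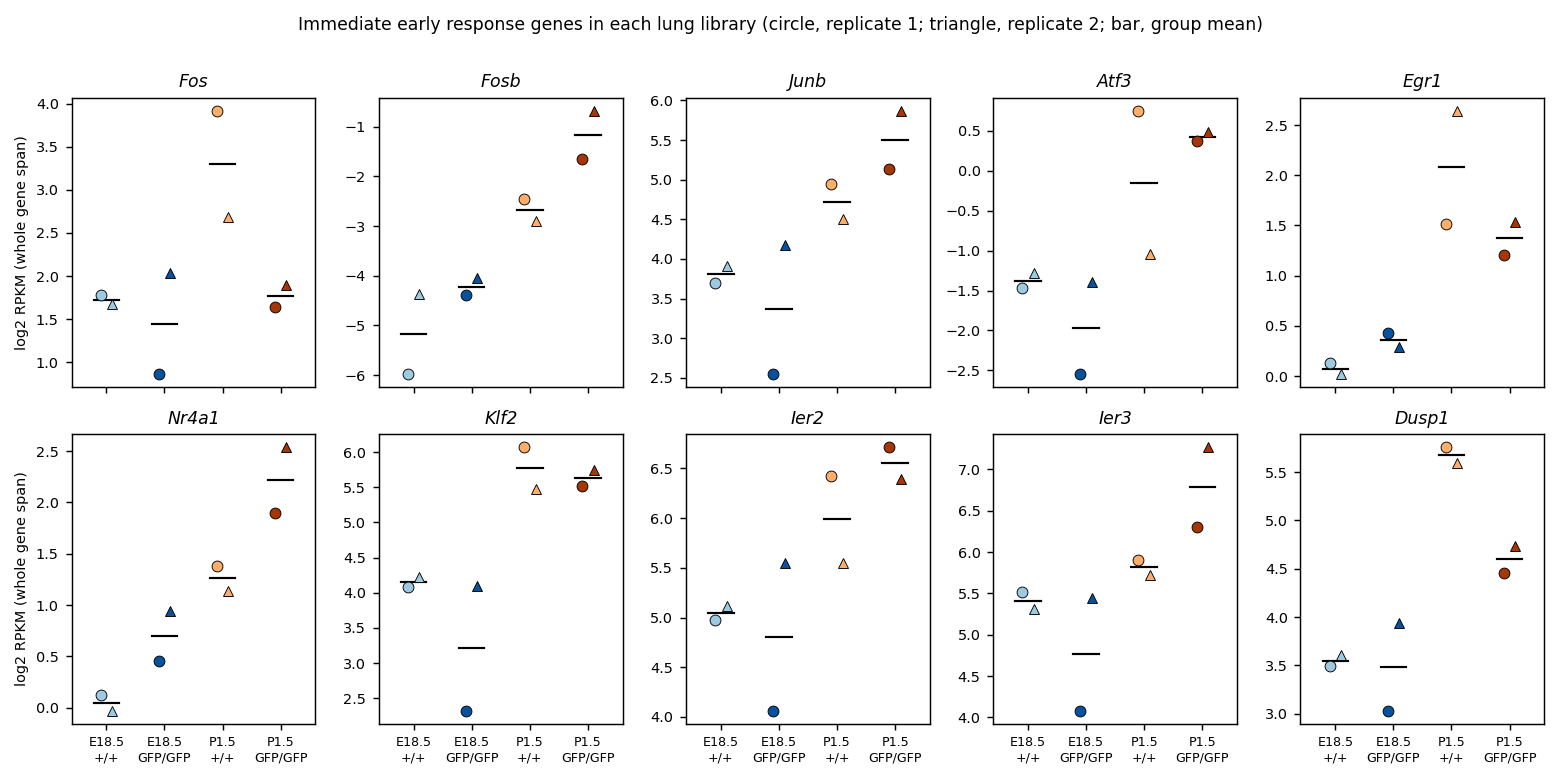
The log2 RPKM of each of the 10 genes (vertical axes, 1 panel per gene) is plotted for the 2 libraries of each group, with a bar at the group mean. In 9 of the 10 panels the 4 P1.5 libraries lie above the 4 E18.5 libraries, the exception being Fos, and replicate 1 of E18.5 Wfdc2 GFP/GFP is the lowest point in 7.

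Fos, Fosb, Junb and Atf3 encode basic leucine zipper proteins. FOS and FOSB pair with JUN proteins to form AP-1, JUNB is a JUN partner with weaker activity, and ATF3 is a stress-induced member that often represses. Fos was measured at 3.43 and 3.20 RPKM in E18.5 Wfdc2 +/+, 1.82 and 4.10 in E18.5 Wfdc2 GFP/GFP, 15.1 and 6.41 in P1.5 Wfdc2 +/+, and 3.11 and 3.74 in P1.5 Wfdc2 GFP/GFP. The P1.5 Wfdc2 +/+ libraries were the highest, and the P1.5 Wfdc2 GFP/GFP libraries lay within the range of E18.5. The difference between stages was 0.94 ± 0.36 (log2, SE; adjusted p = 0.0983 by limma), and the groups overlapped (exact two-sided permutation p = 0.20, 4 libraries against 4).

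Fosb was rare, with reads of 4 and 11 for E18.5 Wfdc2 +/+, 13 and 13 for E18.5 Wfdc2 GFP/GFP, 29 and 19 for P1.5 Wfdc2 +/+, and 54 and 133 for P1.5 Wfdc2 GFP/GFP. In RPKM these were 0.0159 and 0.0482, 0.0477 and 0.0607, 0.182 and 0.133, and 0.318 and 0.621. The libraries of the 2 stages did not overlap, and the level rose by 2.77 ± 0.45 (log2, SE; adjusted p = 0.027), a 6.83-fold difference and the largest of the 10. Its mean at E18.5, 0.0431 RPKM, was under the 0.05 RPKM required over all libraries, so it entered the test through its P1.5 values.

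Junb was measured at 13 and 15 RPKM in E18.5 Wfdc2 +/+, 5.84 and 18.1 in E18.5 Wfdc2 GFP/GFP, 30.8 and 22.7 in P1.5 Wfdc2 +/+, and 35.0 and 58.3 in P1.5 Wfdc2 GFP/GFP. All P1.5 libraries were above all E18.5 libraries, and the P1.5 Wfdc2 GFP/GFP libraries were the highest. The difference was 1.53 ± 0.38 (log2, SE) with an adjusted p of 0.053 by limma. Atf3 was measured at 0.361 and 0.411 RPKM in E18.5 Wfdc2 +/+, 0.171 and 0.380 in E18.5 Wfdc2 GFP/GFP, 1.68 and 0.485 in P1.5 Wfdc2 +/+, and 1.29 and 1.40 in P1.5 Wfdc2 GFP/GFP. Replicate 2 of P1.5 Wfdc2 +/+ was close to the E18.5 libraries without overlapping them, and the difference of 1.81 ± 0.45 (log2, SE) had an adjusted p of 0.052 by limma.

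Egr1, Nr4a1 and Klf2 encode DNA-binding factors of other families. EGR1 is a zinc finger factor induced through serum response factor, NR4A1 is an orphan nuclear receptor, and KLF2 is the Krüppel-like factor that endothelial cells induce under laminar flow and that keeps lymphocytes quiescent. Egr1 was measured at 1.09 and 1.01 RPKM in E18.5 Wfdc2 +/+, 1.35 and 1.22 in E18.5 Wfdc2 GFP/GFP, 2.86 and 6.23 in P1.5 Wfdc2 +/+, and 2.31 and 2.91 in P1.5 Wfdc2 GFP/GFP. The E18.5 libraries lay close together, the stages did not overlap, and the level rose by 1.51 ± 0.29 (log2, SE; adjusted p = 0.037), 2.85-fold. Replicate 2 of P1.5 Wfdc2 +/+ was the highest, and the groups at P1.5 overlapped.

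Nr4a1 was measured at 1.09 and 0.981 RPKM in E18.5 Wfdc2 +/+, 1.37 and 1.92 in E18.5 Wfdc2 GFP/GFP, 2.60 and 2.21 in P1.5 Wfdc2 +/+, and 3.73 and 5.79 in P1.5 Wfdc2 GFP/GFP. Its 4 groups followed each other without overlap, with Wfdc2 GFP/GFP above Wfdc2 +/+ at each stage, and it rose by 1.36 ± 0.25 between stages (log2, SE; adjusted p = 0.034), 2.57-fold. Klf2 was measured at 17 and 18.7 RPKM in E18.5 Wfdc2 +/+, 5.01 and 17 in E18.5 Wfdc2 GFP/GFP, 67.0 and 44.3 in P1.5 Wfdc2 +/+, and 46.0 and 53.7 in P1.5 Wfdc2 GFP/GFP. The stages did not overlap and the genotypes at P1.5 did, and Klf2 rose by 2.02 ± 0.38 (log2, SE; adjusted p = 0.037), 4.06-fold.

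Ier2 and Ier3 are small genes named for their immediate early induction, and IER3 is a stress-induced regulator of cell survival. Ier2 was measured at 31.5 and 34.6 RPKM in E18.5 Wfdc2 +/+, 16.7 and 46.8 in E18.5 Wfdc2 GFP/GFP, 85.7 and 46.9 in P1.5 Wfdc2 +/+, and 105 and 84.2 in P1.5 Wfdc2 GFP/GFP. Replicate 2 of P1.5 Wfdc2 +/+ and replicate 2 of E18.5 Wfdc2 GFP/GFP were almost level. The difference between stages was 1.34 ± 0.37 (log2, SE; adjusted p = 0.059 by limma). Ier3 was measured at 45.6 and 39.5 RPKM in E18.5 Wfdc2 +/+, 16.9 and 43.5 in E18.5 Wfdc2 GFP/GFP, 60.0 and 53.0 in P1.5 Wfdc2 +/+, and 78.9 and 154 in P1.5 Wfdc2 GFP/GFP. The stages did not overlap, and the difference was 1.21 ± 0.36 (log2, SE; adjusted p = 0.064 by limma).

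Dusp1 encodes the phosphatase that removes phosphate from activated MAP kinases and so limits the signal that induces the other genes. It was measured at 11.3 and 12.2 RPKM in E18.5 Wfdc2 +/+, 8.18 and 15.3 in E18.5 Wfdc2 GFP/GFP, 54.0 and 48.3 in P1.5 Wfdc2 +/+, and 22 and 26.7 in P1.5 Wfdc2 GFP/GFP. The P1.5 Wfdc2 +/+ libraries were the highest, the stages did not overlap, and the replicates lay farthest apart in E18.5 Wfdc2 GFP/GFP. It rose by 1.62 ± 0.25 between stages (log2, SE; adjusted p = 0.025), 3.07-fold, and had the lowest adjusted p of the 10.

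**Figure D2:**
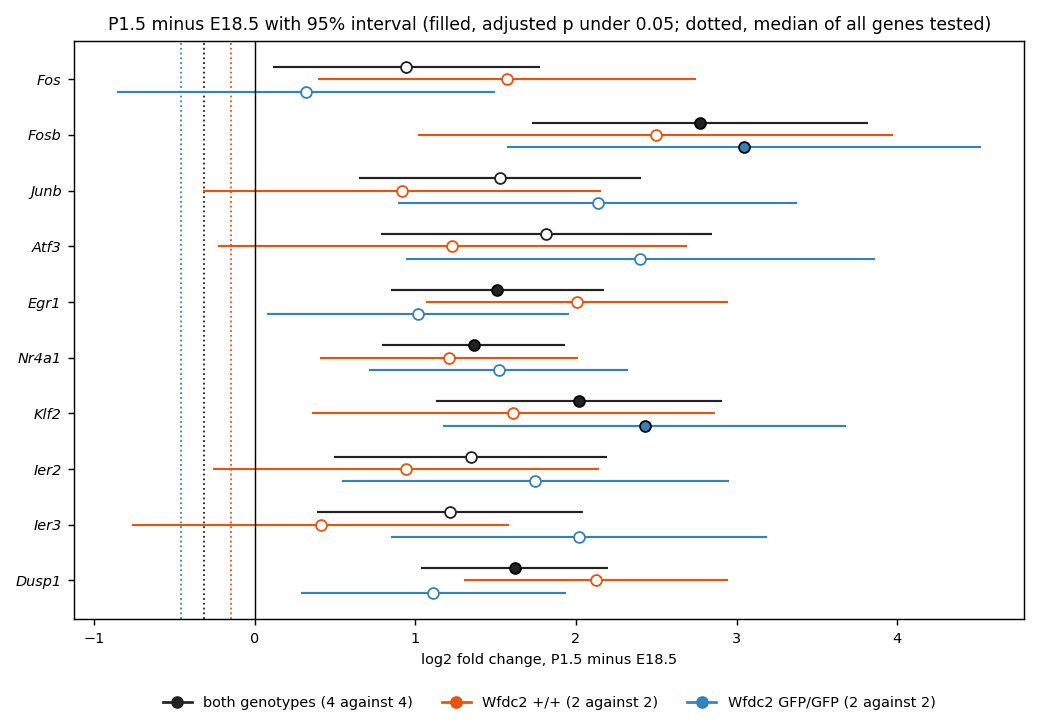
The log2 fold change from E18.5 to P1.5 (horizontal axis) is plotted with its 95% interval for each gene, over both genotypes and within each, with filled points at an adjusted p under 0.05. All 30 estimates lie above 0, and 5 of the 10 over both genotypes, 0 within Wfdc2 +/+ and 2 within Wfdc2 GFP/GFP are filled.

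For 9 of the 10 genes every P1.5 library was above every E18.5 library, against 7.28% of all genes tested. For each of these 9 an exact permutation test (two-sided, 4 against 4 libraries) gave p = 0.0286, the smallest it can give. The number that rose by limma depended on single libraries. Leaving out replicates 1 and 2 of E18.5 Wfdc2 +/+ in turn gave 0 and 1, where 0.198% and 0.352% of all genes tested were called. Leaving out those of E18.5 Wfdc2 GFP/GFP in turn gave 0 and 9 (0.454% and 20.2% of all genes). Leaving out those of P1.5 Wfdc2 +/+ in turn gave 4 and 10 (3.92% and 45.6%), and those of P1.5 Wfdc2 GFP/GFP 0 and 0 (0.179% and 0.262%). The number thus moved with the number of all genes called, while all 10 differences stayed above 0 in all 8 fits. Without the library that stood apart the median of the 10 was 1.32. Centring each library on its median moved the median of all genes tested from -0.32 to 0.15 and the number of the 10 that rose from 5 to 8, with 11.8% of all genes tested called, and of all the genes called the share that was higher was 69.4% in place of 50.2%. The number that rose was 2 (Fosb and Dusp1) without the filter on low genes, and 3 (Fosb, Nr4a1 and Dusp1) with the replicate number, which also separates the sexes, as a block. Egr1 and Klf2 were lost in both.

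Within Wfdc2 +/+ (2 libraries against 2) none of the 10 passed the adjusted threshold and 6 had an unadjusted p under 0.05 by limma, where 0.0576% and 11.8% of all genes tested did. All 10 differences were above 0 (42.9% of all genes tested were), and all 10 were above E18.5 without overlap (27.4% were). The adjusted p was lowest for Dusp1, 0.0865, with a difference of 2.13 (log2) and a 95% interval of 1.30 to 2.95, and Ier3 had the smallest difference, 0.41, with an interval of -0.76 to 1.58. The number called under quantile normalization was 2, where 0.314% of all genes tested were called, and without replicate 2 of P1.5 Wfdc2 +/+ it was 4, where 13.9% were. Of the 9 genes called over the whole set 44.4% were higher, against 73.5% of 49 under quantile normalization.

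Within Wfdc2 GFP/GFP Fosb rose by 3.05 ± 0.64 (log2, SE; adjusted p = 0.047) and Klf2 by 2.43 ± 0.54 (adjusted p = 0.04997, at the threshold), 2 of the 10, where 4.55% of all genes tested passed. All 10 differences were above 0 (36.1% of all genes tested were). Without overlap 9 of the 10 were above E18.5, against 18.7% of all genes tested, with Fos as the exception at 0.32 ± 0.51 (log2, SE). Another 4 of the 10, Junb, Atf3, Nr4a1 and Ier3, had adjusted p values of 0.051 to 0.059. Neither call held without replicate 1 of E18.5 Wfdc2 GFP/GFP, where 0 of the 10 and 0% of all genes tested passed. None of the 10 passed without replicate 1 or replicate 2 of P1.5 Wfdc2 GFP/GFP (0% and 0.0064% of all genes), and 8 passed without replicate 2 of E18.5 Wfdc2 GFP/GFP (15.7% of all genes). Of the 711 genes called 35.4% were higher, against 66.4% of 1279 after median centring and 53.4% of 706 after quantile normalization. The difference between the changes in the 2 genotypes is the interaction given after the genotype comparisons.

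The comparison of genotypes at P1.5 sets the pups against each other after the onset of breathing. By limma 0 of the 10 genes passed the adjusted threshold, where 0.0128% of all genes tested did, and 4, namely Fos, Dusp1, Nr4a1 and Fosb, had an unadjusted p under 0.05, where 10.9% did. The groups did not overlap for 6 of the 10. Fosb, Junb, Nr4a1 and Ier3 were above Wfdc2 +/+ (12.6% of all genes tested were), and Fos and Dusp1 were below (26.9% were). Over the 10, 6 differences were above 0, as were 38.8% over all genes tested. The genes thus differed in sign within the same libraries, with log2 differences from -1.53 for Fos to 1.51 for Fosb and a median of 0.57, beside a median of -0.20 for all genes tested.

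The differences that were largest against their error were those of Fos and Dusp1. Fos was 0.347 times as high in Wfdc2 GFP/GFP, a log2 difference of -1.53 with a 95% interval of -2.70 to -0.35 and an adjusted p of 0.352 by limma, and the difference was -0.91 and -2.14 with replicates 1 and 2 of P1.5 Wfdc2 +/+ left out in turn. Dusp1 was 0.474 times as high, -1.08 with an interval of -1.90 to -0.25 and an adjusted p of 0.351. Both had their highest levels of the series in Wfdc2 +/+ at P1.5. Fosb, a close relative of Fos, differed the other way by 1.51, with an interval of 0.03 to 2.99 and an adjusted p of 0.445. Nr4a1 differed by 0.96, with an interval of 0.15 to 1.76 and an adjusted p of 0.388, and Ier3 by 0.97, with an interval of -0.21 to 2.14 and a value of 0.49 without replicate 2 of P1.5 Wfdc2 GFP/GFP. Egr1 was at -0.71 with an interval of -1.65 to 0.23, and at -1.27 and -0.14 with replicates 1 and 2 of P1.5 Wfdc2 +/+ left out in turn. Klf2 was at -0.13 with an interval of -1.39 to 1.12, a value that turned to 0.069 after median centring.

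**Figure D3:**
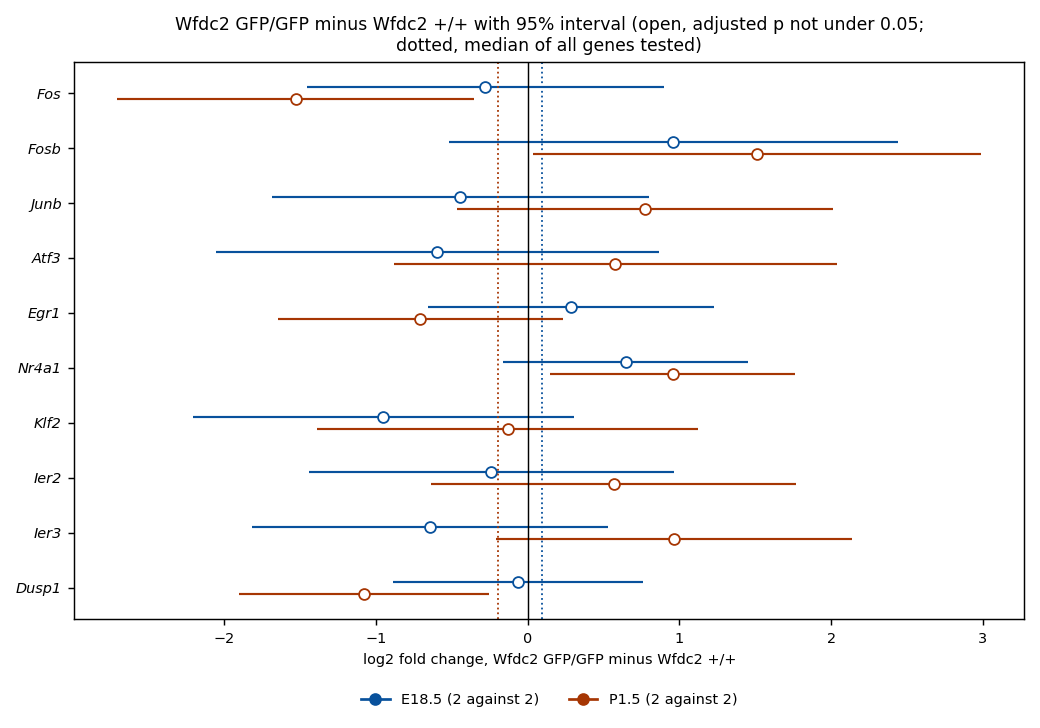
The log2 difference between Wfdc2 GFP/GFP and Wfdc2 +/+ (horizontal axis) is plotted with its 95% interval for each gene at E18.5 and at P1.5, with dotted lines at the medians of all genes tested. No point is filled, since 0 of the 10 passed the adjusted threshold at either stage. At P1.5 the intervals of Fos and Dusp1 lie below 0 and those of Fosb and Nr4a1 above it, and the point of Klf2, at -0.13, moved to 0.069 after median centring.

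At E18.5 0 of the 10 genes differed between genotypes by limma, where 0.0192% of all genes tested did, and 0 had an unadjusted p under 0.05, where 4.37% did. Of the 10 differences 3 were above 0 (59.2% of all genes tested were). Egr1 and Nr4a1 were above Wfdc2 +/+ without overlap and 0 of the 10 were below (26.5% and 9.46% of all genes tested), with log2 differences of 0.29 and 0.65. The intervals reached from -0.65 to 1.23 for Egr1 and from -0.16 to 1.45 for Nr4a1 and so included 0. Klf2 had the largest difference below 0, -0.95 with an interval of -2.21 to 0.31, and without the library that stood apart the difference was -0.07. Without that library Fos, Junb, Ier2, Ier3 and Dusp1 also turned from below to above 0.

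The change of the genotype difference between E18.5 and P1.5 (the interaction) was positive for 7 of the 10 genes, where 35.6% of all genes tested were, and was called for 0, where 0% of all genes tested were called. The largest was that of Ier3, 1.61 with a 95% interval of -0.05 to 3.27 and an adjusted p of 0.501 by limma. Fos, Dusp1 and Egr1 were negative, at -1.25, -1.01 and -0.99. None of the 10 had an unadjusted p under 0.05, where 10.2% of all genes tested did, so no gene was shown to respond to the genotype at P1.5 otherwise than at E18.5.

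A wider list of 73 other immediate early genes, of which 67 were tested, was described beside the members. Between stages 8 rose and 1 fell (2.58% and 2.56% of all genes tested did), 38 of the 67 differences were above 0 (37.3% of all genes tested were) and the median was 0.28, beside -0.32 for all genes tested. The number that rose was 4 without the filter on low genes, 14 after median centring and 3 with the replicate number as a block, and the number that fell was 5 after quantile normalization, 12 without replicate 2 of P1.5 Wfdc2 +/+, 2 without its replicate 1 and 0 without replicate 1 of E18.5 Wfdc2 +/+. The number that rose was 0 without either E18.5 Wfdc2 +/+ library or either P1.5 Wfdc2 GFP/GFP library, 2 and 16 with replicates 1 and 2 of E18.5 Wfdc2 GFP/GFP left out in turn, and 5 and 15 with those of P1.5 Wfdc2 +/+. Of 7 AP-1 and Maf factors only Jund rose, and of 10 zinc finger and nuclear receptor factors none rose and Egr3 fell. Of 25 other regulators 3 rose (Id1, Id3 and Sgk1), of 13 feedback regulators 1 (Dusp8) and of 12 secreted or membrane proteins 3 (Gdf15, Cyr61 and Ctgf). Jun, the usual partner of FOS, differed by 0.16 ± 0.34 between stages (log2, SE; adjusted p = 0.730 by limma).

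Of the wider list, Gdf15, a stress-induced cytokine, rose from 9, 2, 1 and 5 reads at E18.5 to 23, 22, 14 and 53 at P1.5 (adjusted p = 0.042). Of its E18.5 libraries 2 were under the limit of 3 reads, and like Fosb it entered the test through its P1.5 values, so no size is given for its change. Dusp8, another MAP kinase phosphatase, rose by 2.51 ± 0.31 (adjusted p = 0.013), and Jund, a constitutive JUN protein, by 1.93 ± 0.43 (adjusted p = 0.048). Cyr61, a matricellular protein, rose by 1.71 ± 0.33 (adjusted p = 0.039), and Id1, an inhibitor of basic helix-loop-helix factors, by 1.42 ± 0.22 (adjusted p = 0.024). In the opposite direction Egr3, a relative of Egr1, had 10, 8, 33 and 14 reads at E18.5 and 0 in all 4 P1.5 libraries. It was at least 3.65-fold lower at P1.5, with 3 reads per library taken as its limit (adjusted p = 0.0076 by limma). Egr3 entered the test through its E18.5 values. All its P1.5 values stand for no reads and differ only with the library total. The p-values of Egr3 between stages, here and within Wfdc2 GFP/GFP, therefore do not measure the spread between animals at P1.5. Within Wfdc2 GFP/GFP 2 of the 67 rose (Dusp8 and Id1) and Egr3 fell, where 4.55% of all genes tested passed. The number that rose there was 0 with the replicate block, 10 after median centring, 0 without replicate 1 of E18.5 Wfdc2 GFP/GFP or either P1.5 library, and 11 without replicate 2 of E18.5 Wfdc2 GFP/GFP. Within Wfdc2 +/+ 0 of the 67 were called, and 5 rose and 5 fell without replicate 2 of P1.5 Wfdc2 +/+.

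**Figure D4:**
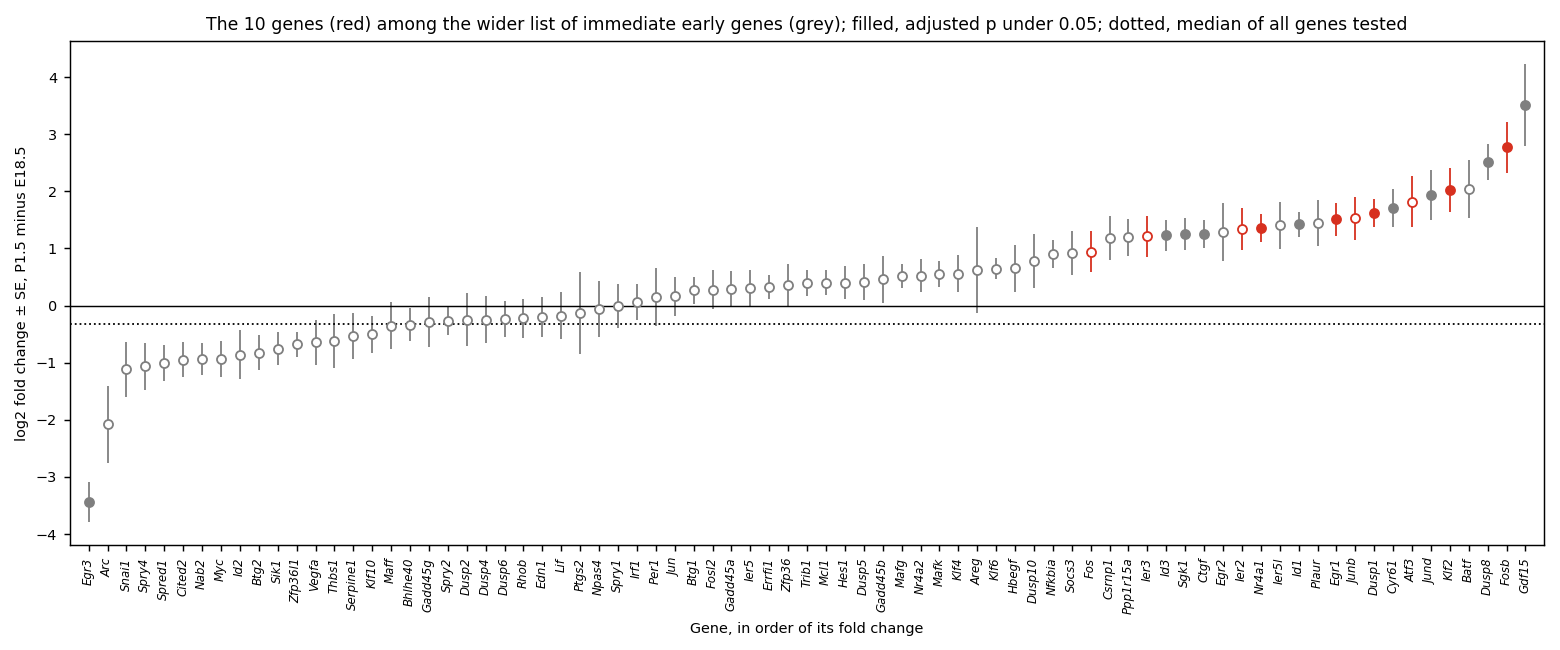
The log2 fold change from E18.5 to P1.5 with its SE (vertical axis) is plotted for the 10 genes (red) and the 67 tested genes of the wider list (grey), in order of size. Filled points, 5 red and 9 grey, have an adjusted p under 0.05. The value of Gdf15 rests on few reads at E18.5, and that of Egr3, which had 0 reads at P1.5, depends on the value entered for no reads and is no bound.

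Between genotypes 0 of the 67 were called at either stage. With the replicate block 1, Npas4, was called lower at P1.5, where 39 of the 15627 genes tested were called. At P1.5 12 of the 67 (17.9%) were above Wfdc2 +/+ without overlap and 12 (17.9%) below, where 12.6% and 26.9% of all genes tested were. The largest of these differences were those of Npas4, Hbegf, Errfi1 and Bhlhe40. Npas4, an activity-regulated factor, was counted with 18 and 25 reads for Wfdc2 +/+ against 0 and 3 for Wfdc2 GFP/GFP (adjusted p = 0.152 by limma). Npas4 entered the test through its P1.5 Wfdc2 +/+ values, the group where it was highest. Its p-values and its call with the block are therefore no support for a difference. Hbegf, a ligand of the EGF receptor, was at 0.597 and 2.00 RPKM for Wfdc2 +/+ against 2.66 and 4.02 for Wfdc2 GFP/GFP. Errfi1, a feedback inhibitor of that receptor, was at 20.1 and 14.2 RPKM for Wfdc2 +/+ against 6.02 and 5.68 for Wfdc2 GFP/GFP. The log2 differences of Hbegf and Errfi1 were 1.58 and -1.53, and neither was called (adjusted p = 0.401 and 0.208 by limma). A link between the 2 was not tested. Bhlhe40, a repressor of clock genes, differed by 1.23 (adjusted p = 0.358). At E18.5 8 of the 67 were above Wfdc2 +/+ without overlap and 8 below, where 26.5% and 9.46% of all genes tested were. The largest of these differences were those of Ptgs2 (-1.38), Egr3 (1.25), Areg (1.07) and Npas4 (0.91), each with an adjusted p of 0.9998 by limma.

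Factors known to bind immediate early promoters before a stimulus were not called between stages, where 5.14% of all genes tested were. Their binding in these lungs was not measured. Srf, at -0.02 ± 0.21 (log2, SE), and Elk3, at 0.01 ± 0.34, were nearest to 0, followed by Elk4 at -0.30 ± 0.26 and Elk1 at -0.40 ± 0.36. Creb1 was at -0.98 ± 0.37 (adjusted p = 0.096 by limma). Of all 11 upstream factors and kinases tested 2 were above 0 and 9 below, with a median of -0.39 beside -0.32 for all genes tested. The lowest was Ets1, at -2.07 ± 0.51 (adjusted p = 0.052 by limma). Of 10 heat shock genes, which respond to other stresses and to handling, 1 passed between stages (5.14% of all genes tested did): Hspa1a rose by 2.09 ± 0.30 (adjusted p = 0.020). The other 9 did not pass and ran from -0.61 for Hsph1 to 1.69 for Hspb1. Between genotypes at P1.5 0 of the 10 heat shock genes were called (0.0128% of all genes tested were). There 4 differences were above 0 and 6 below, with a median of -0.83 beside -0.20 for all genes tested. Their summed level at P1.5 was 798 to 1094 RPKM in Wfdc2 +/+ and 582 to 585 in Wfdc2 GFP/GFP. The part of handling in the levels of the members was not tested.

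Summed marker levels of several cell types moved with stage, in the same direction as the 10 genes. The 10 genes summed to 57.5 to 149 RPKM over the E18.5 libraries and to 231 to 391 over the P1.5 libraries. The 9 neutrophil markers summed to 27.5 to 43.8 RPKM at E18.5 and 322 to 1175 at P1.5, with Ly6g at 0 reads in 3 libraries. The 8 endothelial markers summed to 77.1 to 247 RPKM at E18.5 and 326 to 815 at P1.5, the 5 red cell markers that were found to 1092 to 4043 and 4662 to 8143, and the 8 epithelial markers to 2516 to 7219 and 10558 to 24241. Each of these 4 sums was higher in every P1.5 library than in every E18.5 library, and so was that of the 8 lymphocyte markers, at 0.2 to 0.3 RPKM and 1.0 to 4.6. Those of macrophages and monocytes (7.2 to 14.1 and 12.1 to 28.3), heart muscle (18.8 to 194 and 48.9 to 142) and smooth muscle and fibroblasts (140 to 183 and 55.9 to 242) overlapped between stages. A sum follows its most abundant genes, Cldn5 for endothelium and Sftpc for epithelium, and the single markers did not all move with it. Of the 8 endothelial markers 2 had a stage difference above 0 and 6 below it, with a median of -0.32 (log2). Of the 8 epithelial markers 5 were above 0 and 3 below. All 9 neutrophil markers, the 5 red cell markers and the 5 lymphocyte markers tested were above 0. The part of these cells in the levels of the 10 genes was not tested.

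**Figure D5:**
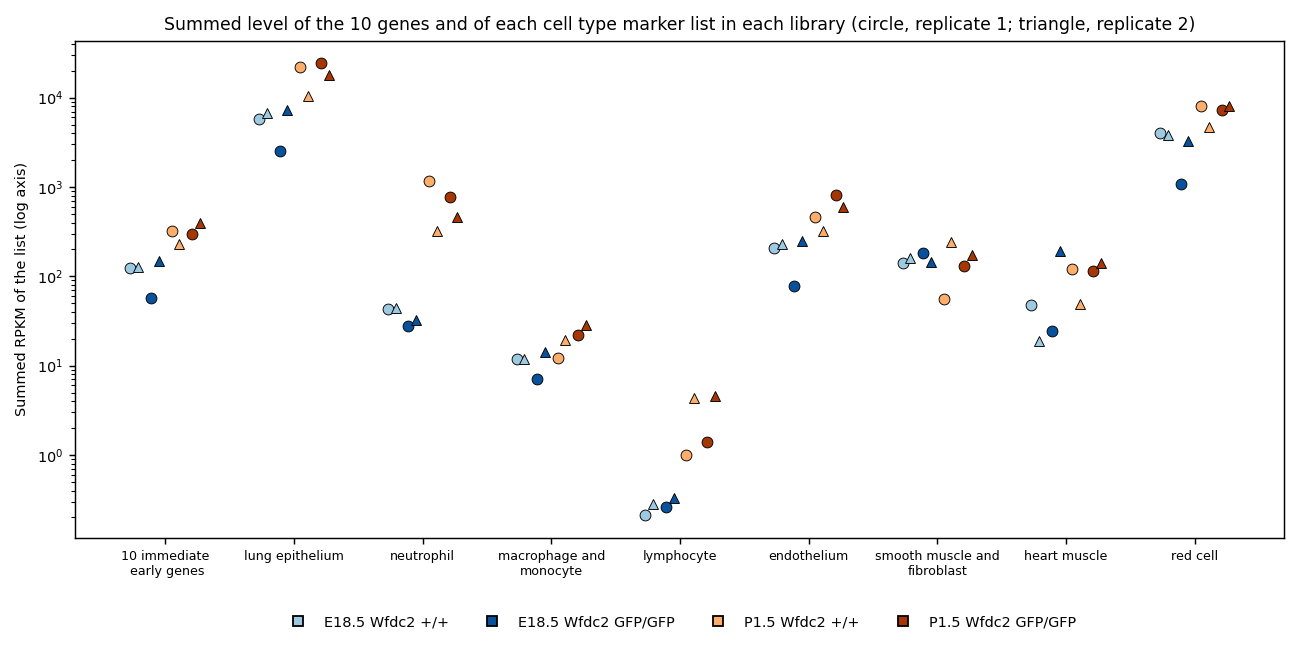
The summed RPKM of the 10 genes and of each marker list (vertical log axis) is plotted for each library. Sums of the 10 genes and of the epithelial, neutrophil, lymphocyte, endothelial and red cell markers are higher in every P1.5 than every E18.5 library. Replicate 1 of E18.5 Wfdc2 GFP/GFP has the lowest sums of the 10 genes and of the epithelial, endothelial, red cell, macrophage and neutrophil markers.

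As a description of which other genes varied alike over the 8 libraries, the mean of the members' log2 RPKM was compared with 9413 genes outside the list. The highest Pearson correlations were those of Lilrb3 (0.993), an inhibitory receptor of myeloid cells, Tuba4a (0.993), a tubulin, Marco (0.992), a scavenger receptor of macrophages, Tom1 (0.992), an adaptor of endosomes, Med11 (0.991), a subunit of Mediator, and Cxcl16 (0.989), a chemokine. These correlations are over 8 libraries that fall into 2 stages and share their depth and total, and they are the highest of many. Of the 10 genes themselves Klf2 and Junb followed the mean of the other 9 most closely, with correlations of 0.943 and 0.939, and Fos (0.577) and Egr1 (0.697) least.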

How the data were processed

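The authors trimmed the reads (Trim Galore 0.4.0), mapped them to mm10 with TopHat 2.1.1 guided by mRNA coordinates, then quantified them with SeqMonk. What the authors deposited is log2 RPKM for 8 libraries, computed over the whole gene span, with a gene without reads entered as 0.9 read (both tested on the values). The library kit is directional, and whether counting used strand is not given in the sources used here, nor which libraries were run on which of the 2 sequencers.

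Whole reads and library totals were recovered from the steps of the values. The 15627 genes averaging 0.05 RPKM or more were tested by limma 3.58.1 (R 4.3.3) in a model of 4 group means, which left 4 residual degrees of freedom, with a trended prior. Tests were two-sided and adjusted over all genes tested by the Benjamini-Hochberg method, and called at an adjusted p under 0.05. Fits were also run on simulated reads drawn independently for each gene and library. These held no shifts of whole libraries, so they do not show how the fits behave under the shifts in these data. Alternatives were log2(RPKM + 0.1), no filter, median centring, quantile normalization, voom on recovered reads, the replicate number as a block (statmod 1.5.0), and each library left out in turn, the lone library of a group then being assumed to vary like the others. For the genotype comparisons and the interaction the block was a correlation between same-numbered libraries of a stage. For the stage comparisons it was a replicate term added to the model, which left 3 residual degrees of freedom. Exact permutation tests and figures used Python 3.11.15, scipy 1.17.1 and matplotlib 3.10.9.

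The members and lists were chosen with earlier results of these data known. Named beside the 10 members are Srf, Elk1, Elk3, Elk4 and Creb1, the 6 genes most like the members, and from the wider list up to 6 called genes with the largest change in a contrast, or up to 4 without overlap where none was called. Jun, Hspa1a, Hsph1, Hspb1, Id3, Sgk1 and Ctgf were named after their values were seen. Promoters come from RefSeq (GRCm38.p6) and exons from GENCODE M21.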

Additional observations from a re-analysis of the deposited data

Results flagged for a closer look

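Each of the 10 genes was screened for a library far from the others among the 4 of each stage, 20 groups of 4 in all, by whether its gap to the nearest library, as a share of the range, exceeded Dixon's 95% critical value. Chance flags about 1 in 20 such groups, and 3 were found. Since the 10 genes share their libraries and vary together, these flags are not independent. All were at E18.5, with replicate 1 of Wfdc2 GFP/GFP as the lowest. Atf3 was at -2.55 log2 RPKM there, against -1.47 to -1.28 in the other 3 libraries. Ier3 was at 4.08 against 5.31 to 5.51, and Klf2 at 2.32 against 4.09 to 4.23. The same library had the lowest epithelial, endothelial and red cell marker sums, though not every epithelial and endothelial marker was low there. The part of these cells in the 3 values was not tested.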

How the results depend on the processing

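All 10 stage differences stayed above 0 over both genotypes and within Wfdc2 +/+ under every alternative run, and some of the other directions turned. With 2 libraries a group, calls turned on single libraries. Members called ran from 0 to 10 over the fits that left out 1 library for the stage comparison (5 with all), 0 to 4 within Wfdc2 +/+ (0) and 0 to 8 within Wfdc2 GFP/GFP (2), and stayed at 0 for both genotype comparisons and the interaction. Genes called ran from 28 to 7125 (803), 0 to 2166 (9), 0 to 2449 (711), 1 to 24 for genotype at P1.5 (2), 0 to 1 at E18.5 (3) and 0 to 2 for the interaction (0). The cause of these shifts was not tested.

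Of the 10 members, those called between stages were 2 without the filter, 8 after median centring and 3 with the replicate block. Within Wfdc2 GFP/GFP they were 0 without the filter, 6 after median centring, 0 by voom and 0 with the block, and within Wfdc2 +/+ 2 after quantile normalization. Genes called between stages were 428 without the filter, 1842 after median centring, 1278 after quantile normalization and 287 with the block. Within Wfdc2 GFP/GFP they were 349 without the filter, 1279 after centring, 129 by voom and 125 with the block. Within Wfdc2 +/+ they were 16 with log2(RPKM + 0.1), 35 without the filter, 5 after centring, 49 after quantile normalization, 0 by voom and 0 with the block. For genotype at P1.5 they were 11 with log2(RPKM + 0.1), 21 without the filter, 0 after centring, after quantile normalization and by voom, and 39 with the block. At E18.5 they were 6, 22, 0, 0, 0 and 6 in the same order, and for the interaction 31 with the block.

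The replicate numbers are not stated to pair the animals. Deviations of same-numbered libraries correlated at 0.23 within E18.5 and 0.21 within P1.5, and at -0.29 to 0.08 between stages. Replicate 1 of every group had 4121 to 90980 Xist reads and replicate 2 had 1 to 13, so the number also marks the sex of the animal in these values. Each fit that left out 1 library thus also left the sexes unequal between groups. With the block Egr1 (adjusted p = 0.051 by limma, 0.00701 to 0.152 over its alternatives) and Klf2 (0.051, 0.0102 to 0.139) were no longer called between stages.

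Klf2 at P1.5 moved from -0.13 to 0.069 after median centring, and ran from -0.43 to 0.17 when 1 library was left out, with Atf3 at -0.32 to 1.47. At E18.5 the ranges were -0.86 to 0.31 for Fos, -1.26 to 0.37 for Junb, -0.98 to 0.50 for Ier2, -1.32 to 0.036 for Ier3 and -0.52 to 0.39 for Dusp1, each positive value without replicate 1 of Wfdc2 GFP/GFP. For the interaction they were -0.25 to 1.35 for Fosb, -0.064 to 1.70 for Klf2 and -0.0091 to 0.63 for Nr4a1, and for stage within Wfdc2 GFP/GFP -0.27 to 0.91 for Fos. Among the genes named, Fosb, Egr3, Gdf15, Npas4, Ptgs2 and Hspa1a had under 60 reads in most libraries, which limits their precision.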
